A study of Mus musculus with 9 samples.

Results

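Toll-like receptor and inflammasome genes form the sensing arm of innate immunity, and 10 of them were examined here in the mouse retina after laser-induced retinal vein occlusion (RVO). The 10 genes were chosen by symbol from the 48587 gene names of the counts table: the receptors Tlr2, Tlr3 and Tlr4, the adaptor Myd88, the inflammasome sensors Nlrp3 and Aim2, the inflammasome adaptor Pycard, the inflammatory caspases Casp1 and Casp4, and the pore-forming protein Gsdmd. All 10 names were found in the table. The rule takes them by name, though they were proposed with earlier results of these data known.

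The counts table covers 9 RNA samples, and for each of them 6 retinas of 6 C57BL/6J mice aged 12 weeks had been combined. In the RVO group (n = 3), mice had received eosin Y as a photosensitizer and all veins of one eye had been closed by laser. The Control group (n = 3) came from the other eye of laser-treated mice, which had received the same number and strength of laser spots between the large vessels after the same eosin Y injection. Both were taken at d2 after the laser, and the Untreated group (n = 3) came from mice without laser treatment. RVO and Control pools thus share their animals and the drug, and n counts pools and not mice. The Untreated libraries were the shallowest, with totals of 12377572 to 15245869 counts, against 18897218 to 23419497 for Control and 21022997 to 28993921 for RVO. Levels are given as CPM (counts per 1000000 counts of the library total after scaling by TMM factors over all 9 samples), and 3 counts, used as the floor of detection, came to 0.0967 to 0.268 CPM. Rod markers dominated all samples, with summed levels of 79589 to 81443 CPM in Untreated, 52440 to 64173 CPM in Control and 42904 to 47054 CPM in RVO samples. Lens markers stood out in RVO replicate 2 (3126 CPM) and Control replicate 1 (1752 CPM) against 1.75 to 256 CPM in the other 7 samples. Calls between RVO and Control that depended on RVO replicate 2 are therefore given with and without it.

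Toll-like receptors are membrane proteins that recognise microbial products and molecules released by damaged cells. Most of them signal through the adaptor MyD88 to NF-kB, which raises transcription of cytokines and of several inflammasome components. Inflammasomes are cytosolic complexes in which a sensor such as NLRP3 or AIM2 recruits ASC, the product of Pycard, and thereby activates caspase-1. Caspase-1 matures interleukin-1 beta and interleukin-18 and cleaves gasdermin D, whose fragments form pores in the cell membrane. In the retina, microglia and invading myeloid cells are the best known sources of these proteins, and Mueller glia, endothelial cells and pigment epithelium can express some of them.

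Compared with untreated eyes, RVO eyes had higher levels of 6 of the 10 genes (Tlr2, Tlr4, Myd88, Nlrp3, Casp4 and Gsdmd) and a lower level of 1 (Aim2), at an adjusted p under 0.01 in edgeR's quasi-likelihood test. Of all 16380 genes tested in that comparison, 27.4% were called higher and 24.6% lower. In Control eyes, 3 of the 8 genes that passed the filter on low counts were higher than in untreated eyes (Tlr2, Myd88 and Gsdmd) and 0 were lower, against 27.2% of 16066 genes called higher and 25.2% called lower. Of the 8 genes, 6 had an unadjusted p under 0.05, as had 67.6% of all genes. DESeq2 called the same 3 and 0 lower, against 25.1% of all genes higher and 24.3% lower. Between RVO and Control eyes, edgeR called 0 of the 10 genes, 6 had an unadjusted p under 0.05, and DESeq2 called 4 (Tlr4, Myd88, Nlrp3 and Casp4). Of all 16874 genes tested there, 2.70% were called higher and 0.634% lower by edgeR, and 11.0% higher and 12.8% lower by DESeq2. An unadjusted p under 0.05 was found for 47.1% of them. RVO and Control were both compared with the same Untreated samples, so these comparisons are not independent of each other.

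**Figure D1:**
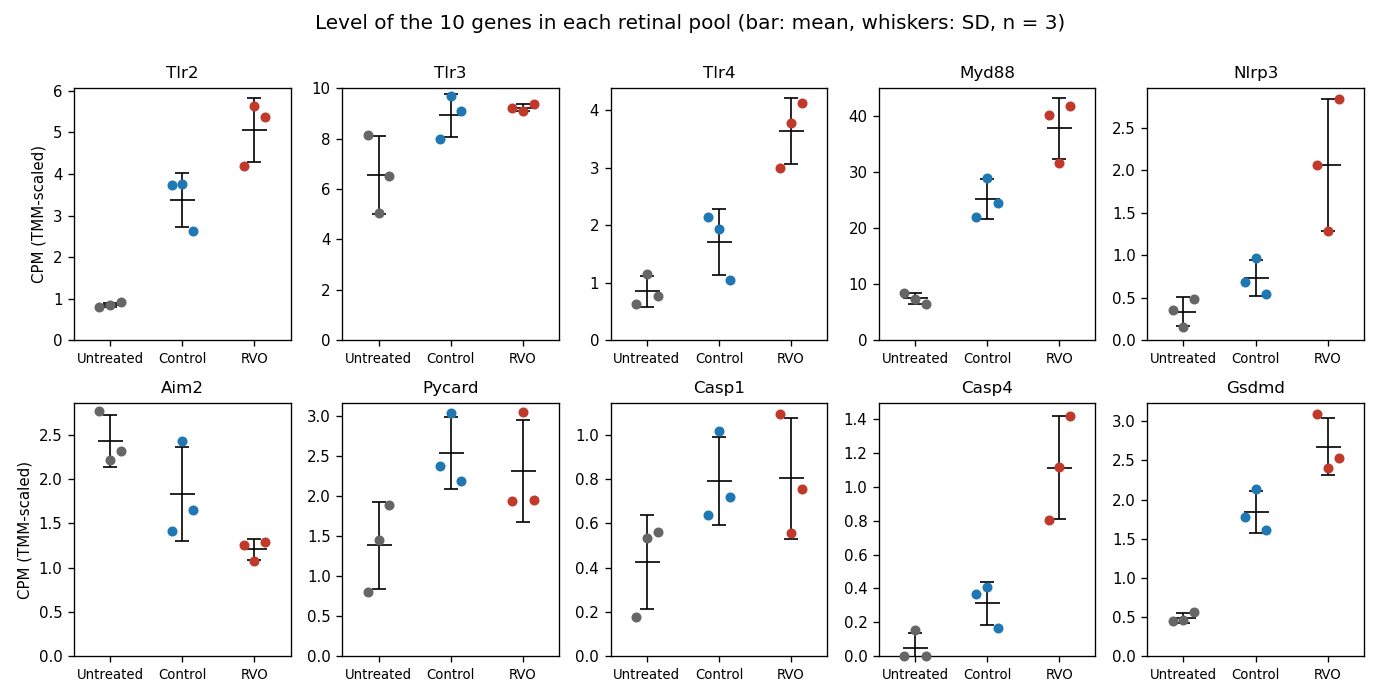
Level of each of the 10 genes in CPM (vertical axis, linear, from 0) in the 3 pools of each group (horizontal axis), with the mean as a bar and the SD as whiskers (n = 3). For Tlr2, Myd88 and Gsdmd the Untreated, Control and RVO pools lie in 3 separate ranges in that order, whereas Aim2 has its lowest pools in RVO.

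Tlr2 codes for the receptor of bacterial lipoproteins, which works in pairs with Tlr1 or Tlr6, and lies on the minus strand of chromosome 3 (chr3:83836272-83841767, GRCm38). Its level was 0.805, 0.841 and 0.912 CPM in the Untreated pools, 3.74, 3.76 and 2.62 CPM in the Control pools and 4.19, 5.63 and 5.37 CPM in the RVO pools. The groups did not overlap in any pair. The log2 fold change was 2.54 ± 0.23 (SE) for RVO against Untreated (edgeR adjusted p = 5.4e-05) and 1.94 ± 0.26 for Control against Untreated (adjusted p = 2.6e-05). Between RVO and Control it was 0.58 ± 0.21, which did not pass the threshold (edgeR adjusted p = 0.0619). Without RVO replicate 2 it was 0.48 ± 0.21 (edgeR adjusted p = 0.0836).

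The 250 bases before the RefSeq start of each gene (GRCm38.p6) were searched on both strands for the 10-letter NF-kB consensus. Motifs of the factors AP-1, STAT and PU.1 and the core of the interferon response element were searched as well. The NF-kB consensus is shown because NF-kB is the factor through which these receptors signal. RefSeq windows were found for 8 of the 10 genes, all but Tlr4 and Gsdmd. The NF-kB consensus was found in the windows of Tlr2, Tlr3, Nlrp3 and Casp4 and in none of those of Myd88, Aim2, Pycard and Casp1. Of 32817 such windows in the genome, 7.25% hold it. The Myd88 window held a match to the STAT motif and to the interferon response core, which 7.01% and 7.12% of all windows hold. Those of Aim2 and Pycard each held a PU.1 match (2.44% of all windows), and AP-1 (6.75%) had no match. The RefSeq starts of Tlr3, Myd88 and Aim2 lie 700, 1393 and 69725 bases downstream of their GENCODE starts. Their windows thus lie within the gene spans given here, and the bases before their GENCODE starts were not searched. In the Tlr2 window the NF-kB consensus matched at 173 to 164 and, overlapping by palindrome, at 172 to 163 bases before the RefSeq start. The stretch below (chr3:83841768-83841858, minus strand, 5′ to 3′) is the upstream end of that window, and capitals mark the matches:
Tlr2: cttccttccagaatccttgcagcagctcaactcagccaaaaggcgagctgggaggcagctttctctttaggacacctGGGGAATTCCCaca
A match of letters is a description of the sequence and not a measured binding site.

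Tlr4, the receptor of bacterial lipopolysaccharide, lies on the plus strand at chr4:66827584-66930284. It was counted at 0.626, 1.15 and 0.771 CPM in Untreated, 2.14, 1.93 and 1.06 CPM in Control and 3.00, 3.78 and 4.13 CPM in RVO pools. RVO pools lay above all others, while 1 Control pool fell within the range of the Untreated pools. The log2 fold change of RVO against Untreated was 2.06 ± 0.28 (edgeR adjusted p = 0.00034). Control against Untreated gave 0.96 ± 0.35 (edgeR adjusted p = 0.0272) and RVO against Control 1.09 ± 0.28 (adjusted p = 0.0241), and neither passed the threshold. Without RVO replicate 2, RVO against Control gave 1.04 ± 0.29 (edgeR adjusted p = 0.0157).

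Tlr3, the endosomal receptor of double-stranded RNA, had the highest mean level per length of the 3 receptors and the smallest differences between groups (chr8:45395665-45411080, minus strand). Untreated pools had 8.14, 5.05 and 6.52 CPM, Control pools 7.98, 9.70 and 9.08 CPM and RVO pools 9.22, 9.11 and 9.36 CPM. The lowest RVO pool lay above the highest Untreated pool, but the Untreated pools were widely spread. Log2 fold changes were 0.49 ± 0.18 for RVO (edgeR adjusted p = 0.0422) and 0.43 ± 0.16 for Control against Untreated (adjusted p = 0.0313), and 0.05 ± 0.12 between RVO and Control (adjusted p = 0.781). With scaling by library size alone, which moved the median of all genes by 0.21 and 0.17, both differences from Untreated passed the threshold. Tlr3 shares 381 exon bases with the antisense gene Gm45542, and whether the counting used the strand is not given in the sources used here.

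Myd88, the adaptor of most Toll-like receptors and of the interleukin-1 receptor family, had the highest level per length of the 10 genes in every group (chr9:119335934-119341411, minus strand). It was measured at 8.50, 7.34 and 6.52 CPM in Untreated, 22.0, 28.9 and 24.5 CPM in Control and 40.1, 31.6 and 41.7 CPM in RVO pools. Each group lay apart from both others. The log2 fold change was 2.34 ± 0.15 for RVO against Untreated (edgeR adjusted p = 1.4e-05) and 1.74 ± 0.13 for Control against Untreated (adjusted p = 3.8e-07). Between RVO and Control it was 0.59 ± 0.14 (edgeR adjusted p = 0.0202), which did not pass the threshold, and 0.68 ± 0.11 (adjusted p = 0.0008) without RVO replicate 2. Without Control replicate 1, the other pool with high lens markers, the log2 fold change was 0.50 ± 0.15 (edgeR adjusted p = 0.0756). Its exons overlap those of Acaa1a on the opposite strand by 290 bases.

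Nlrp3, the sensor of membrane damage and ion efflux, lies on the plus strand at chr11:59541568-59566956 and was measured near the floor in untreated eyes. The counts were 4, 2 and 7 in Untreated, 15, 19 and 13 in Control and 64, 30 and 64 in RVO pools, which came to 0.358, 0.153 and 0.491 CPM, 0.684, 0.965 and 0.549 CPM, and 2.06, 1.29 and 2.84 CPM. The 3 groups did not overlap, and RVO replicate 2 was the lowest RVO pool. Nlrp3 was higher in RVO than in untreated eyes by 2.58 ± 0.47 on the log2 scale (edgeR adjusted p = 0.0016). Against Control the difference was 1.50 ± 0.36 (edgeR adjusted p = 0.0198), and without RVO replicate 2 it was 1.72 ± 0.29 (adjusted p = 0.00105). Without Control replicate 1 it was 1.46 ± 0.45 (edgeR adjusted p = 0.0738). The comparison of Control with Untreated was not tested, since the gene did not pass the filter there. Its upstream window held 1 NF-kB match at 186 to 177 bases before the start, in capitals below (chr11:59541319-59541567, plus strand):
Nlrp3: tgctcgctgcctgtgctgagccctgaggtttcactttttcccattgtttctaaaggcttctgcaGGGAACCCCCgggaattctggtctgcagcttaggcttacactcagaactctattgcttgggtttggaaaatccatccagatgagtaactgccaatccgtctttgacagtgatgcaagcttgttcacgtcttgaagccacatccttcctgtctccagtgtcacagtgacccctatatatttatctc

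Aim2, the sensor of cytosolic double-stranded DNA, was the only one of the 10 genes with a called decrease (chr1:173350879-173466040, plus strand). Untreated pools had 2.77, 2.22 and 2.31 CPM, Control pools 1.41, 2.44 and 1.65 CPM and RVO pools 1.26, 1.07 and 1.29 CPM. All RVO pools lay below all others, and Control pools reached into the range of the Untreated pools. Against Untreated, Aim2 fell by 1.01 ± 0.22 on the log2 scale in RVO (edgeR adjusted p = 0.0036), and the log2 fold change in Control was -0.43 ± 0.25 (adjusted p = 0.15). RVO against Control gave -0.59 ± 0.26 (edgeR adjusted p = 0.108). The call was lost in 5 of the 6 fits that left out 1 sample, where the log2 fold change ran from -1.08 to -0.92. It was also lost with scaling by library size alone (log2 fold change -0.80, adjusted p = 0.0111).

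Pycard codes for ASC, the adaptor that links inflammasome sensors to caspase-1 (chr7:127989708-127993867, minus strand). Its level was 0.805, 1.45 and 1.89 CPM in Untreated, 2.37, 3.05 and 2.20 CPM in Control and 1.93, 3.05 and 1.95 CPM in RVO pools. Both lasered groups lay above the Untreated pools, though the lowest RVO pool (1.93 CPM) was close to the highest Untreated pool (1.89 CPM). No comparison passed the threshold: log2 fold changes were 0.70 ± 0.33 (edgeR adjusted p = 0.0967), 0.81 ± 0.28 (adjusted p = 0.0225) and -0.14 ± 0.25 (adjusted p = 0.685) for RVO against Untreated, Control against Untreated and RVO against Control. Pycard shares 485 exon bases with Gm45205 on the opposite strand.

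Casp1 and Casp4 are neighbours on the plus strand of chromosome 9, 1562 bases apart (chr9:5298517-5307265 and chr9:5308828-5336783). Casp1 codes for the caspase that matures interleukin-1 beta, and mouse Casp4, also called caspase-11, binds cytosolic lipopolysaccharide directly. Casp1 had 2, 7 and 8 counts in Untreated, 14, 20 and 17 in Control and 34, 13 and 17 in RVO pools. These counts came to 0.179, 0.535 and 0.561 CPM, 0.639, 1.02 and 0.718 CPM, and 1.10, 0.558 and 0.754 CPM. RVO and Untreated pools overlapped at their edges, and none of the 3 comparisons passed the threshold. The log2 fold changes of Casp1 were 0.88 ± 0.45 (edgeR adjusted p = 0.113), 0.80 ± 0.41 (adjusted p = 0.106) and 0.06 ± 0.33 (adjusted p = 0.904) in the same order.

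Casp4 was close to absent from untreated eyes, with 0, 2 and 0 counts, and had 8, 8 and 4 counts in Control and 25, 26 and 32 in RVO pools. In CPM the Control pools were at 0.365, 0.406 and 0.169 and the RVO pools at 0.806, 1.12 and 1.42. RVO pools lay above all others, and Control pools above the Untreated pools. Per TMM-scaled library total, RVO pools had 20.8 times the counts of the Untreated pools, with an exact 95% counting interval of 5.58 to 175, and the difference was called (edgeR adjusted p = 0.00114). For Control against Untreated the ratio was 5.90 (1.43 to 52.1, exact counting interval), and the gene did not pass the filter for a test. These intervals cover counting error only. RVO exceeded Control by 1.82 ± 0.38 on the log2 scale (edgeR adjusted p = 0.0148), and by 1.78 ± 0.42 without RVO replicate 2 (adjusted p = 0.00708). Without Control replicate 1 the difference was 1.95 ± 0.48 (edgeR adjusted p = 0.0555). The upstream windows of both neighbours are shown because these genes differed in their levels. Whether a match goes with a level was not tested. The Casp4 window (chr9:5308599-5308827) held the NF-kB consensus at 93 to 83 bases, where 2 matches overlap, and at 39 to 30 bases before its start, marked by capitals, and the Casp1 window (chr9:5298267-5298516) held none:
Casp4: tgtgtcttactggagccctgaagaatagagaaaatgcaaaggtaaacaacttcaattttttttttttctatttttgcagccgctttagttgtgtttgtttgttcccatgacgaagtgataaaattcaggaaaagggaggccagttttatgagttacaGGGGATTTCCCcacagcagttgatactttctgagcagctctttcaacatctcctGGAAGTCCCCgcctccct
Casp1: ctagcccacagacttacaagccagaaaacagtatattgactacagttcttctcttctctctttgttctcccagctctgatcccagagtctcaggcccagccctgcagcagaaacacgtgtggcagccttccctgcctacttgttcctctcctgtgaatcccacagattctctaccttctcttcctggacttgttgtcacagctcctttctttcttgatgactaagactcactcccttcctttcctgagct

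Gsdmd codes for gasdermin D, the substrate of both caspases that forms the pore (chr15:75862327-75867408, plus strand). It was measured at 0.447, 0.459 and 0.561 CPM in Untreated, 1.78, 2.13 and 1.61 CPM in Control and 3.10, 2.41 and 2.53 CPM in RVO pools. The 3 groups did not overlap. Log2 fold changes against Untreated were 2.42 ± 0.26 in RVO (edgeR adjusted p = 0.00013) and 1.86 ± 0.30 in Control (adjusted p = 0.00013). RVO against Control gave 0.55 ± 0.20 (edgeR adjusted p = 0.0669).

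**Figure D2:**
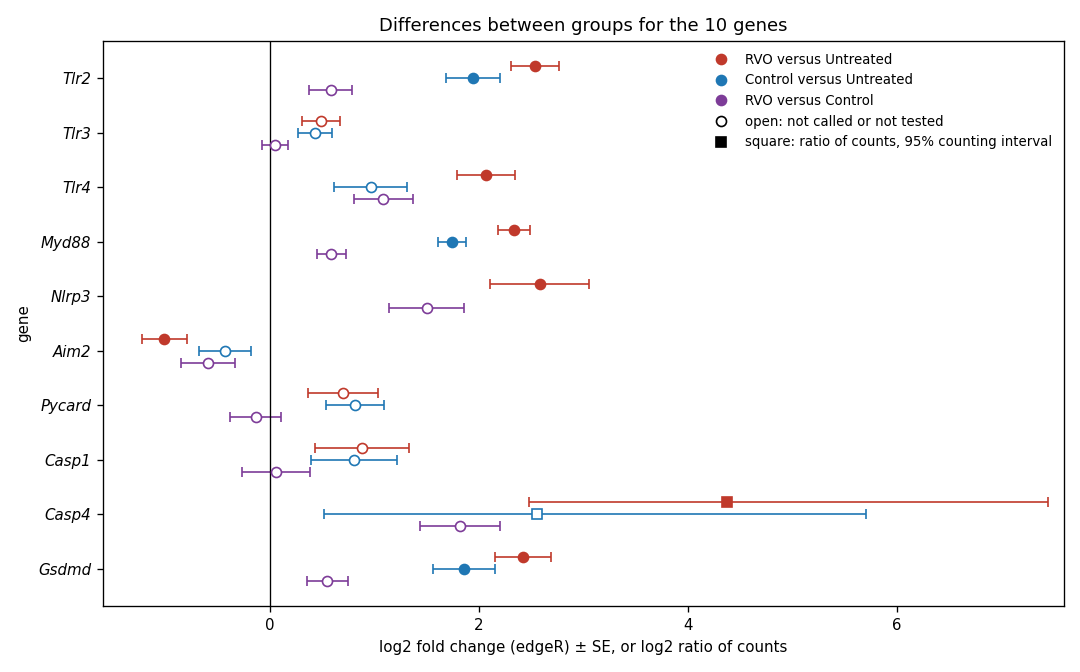
Log2 fold change ± SE from edgeR (horizontal axis) of the 10 genes (vertical axis) in 3 comparisons, filled where called at an adjusted p under 0.01 and open otherwise. Squares for Casp4 are log2 ratios of counts with 95% counting intervals, and Nlrp3 has no point for Control versus Untreated because it was not tested there. Filled points of RVO versus Untreated lie at 2.06 or above except that of Aim2 at -1.01, and RVO versus Control has no filled point.

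Set beside each other, the 10 genes gave a median of 2.20 for the log2 fold change of RVO against Untreated, where the median of all genes tested was 0.01. For Control against Untreated the median was 0.89 over the 8 genes tested, and for RVO against Control it was 0.57 over 10, against 0.01 and 0.02 over all genes. The pools of RVO and Untreated did not overlap in 9 of the 10 genes, 8 of them higher and 1 lower, as they did not in 37.8% of all genes tested with RVO higher and in 35.5% with RVO lower. For Control and Untreated, 5 of the 8 genes tested did not overlap, all higher, against 36.8% of all genes higher and 33.0% lower. For RVO and Control, 6 of the 10 genes were higher and 1 lower without overlap, against 27.3% and 25.4%. At an adjusted p under 0.05, 4 of the 10 genes were higher in RVO than in Control (Tlr4, Myd88, Nlrp3 and Casp4) and 0 lower, against 17.5% and 17.1% of all genes. Without RVO replicate 2, edgeR called 3 of them at 0.01 (Myd88, Nlrp3 and Casp4), and a fit of all 9 samples called the same 3 genes. Calls over all genes were more frequent in these fits too, at 17.1% higher and 19.3% lower without RVO replicate 2 and at 10.7% and 11.8% in the fit of all 9 samples. The log2 fold change of RVO against Control was highest for Casp4 (1.82), Nlrp3 (1.50) and Tlr4 (1.09), none of them called at 0.01 with all pools of the pair. Myd88, Tlr2 and Gsdmd were at 0.59, 0.58 and 0.55, Casp1, Tlr3 and Pycard at 0.06, 0.05 and -0.14, and Aim2 at -0.59.

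Levels were compared between genes only as CPM per kilobase of merged exons (GENCODE vM21, GRCm38). Merged exons join those of every annotated transcript, with 1497 bases for Casp1, 3710 for Casp4 and 3800 for Pycard. The transcripts expressed may be shorter, so the ranks hold for these lengths only. Myd88 was highest in every group, at 2.89 ± 0.39 (SD, n = 3) in Untreated, 9.77 ± 1.36 in Control and 14.7 ± 2.1 in RVO eyes, and its pools lay above those of every other gene. Tlr3 came next with 1.26 ± 0.30, 1.71 ± 0.17 and 1.77 ± 0.02, and in RVO its pools overlapped those of Tlr2 (1.68 ± 0.25). In untreated eyes Aim2 was at rank 3 (0.696 ± 0.085), apart from Pycard below it, and in RVO eyes at rank 9 (0.344 ± 0.033), where its pools overlapped those of Nlrp3 above and Casp4 below. Casp4 was lowest per kilobase in all groups, at 0.0137 ± 0.0238, 0.0845 ± 0.0342 and 0.300 ± 0.083. Among the middle ranks most neighbours overlapped: in Untreated pools Pycard with Casp1 and Casp1 with Tlr2, and in Control pools every step from Tlr2 down to Aim2.

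Other genes of these pathways were described by lists, to be read beside the shares of all genes tested. For RVO against Untreated 27.4% of all genes were called higher and 24.6% lower, and for Control against Untreated 27.2% and 25.2%. Between RVO and Control the shares were 2.70% and 0.634%, with 47.1% at an unadjusted p under 0.05. Of 9 other Toll-like receptors, 4 passed the filter for RVO against Untreated and 3 were higher. The median of their log2 fold changes was 1.98, and 1.41 with Tlr6 at the lower end of its counting interval. Tlr13, an endosomal receptor of bacterial ribosomal RNA, went from 1.02 ± 0.23 CPM (SD, n = 3) in Untreated to 3.06 ± 1.00 CPM in Control and 5.96 ± 1.23 CPM in RVO pools. On the log2 scale it rose by 2.54 ± 0.27 in RVO (edgeR adjusted p = 0.00011) and 1.56 ± 0.31 in Control (adjusted p = 0.00074). Tlr6, a partner of Tlr2, had 6 counts in all Untreated and 63 in all RVO pools, a ratio of 5.26 per TMM-scaled library total (exact 95% counting interval 2.29 to 14.9, edgeR adjusted p = 0.002). Tlr1 and Tlr6 are near-identical in part of their sequence, so reads could be split between them. In Control eyes 1 of 2 tested receptors was called higher (Tlr13), and between RVO and Control 0 of 5 were called by edgeR, with 2 at an unadjusted p under 0.05.

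Co-receptors and chaperones that help the receptors bind or reach their compartment gave 4 of 9 tested genes higher and 0 lower in RVO against Untreated. Cd14, which hands lipopolysaccharide to Tlr4, was at 1.97 ± 0.48 CPM in Untreated, 4.43 ± 0.73 CPM in Control and 10.2 ± 3.1 CPM in RVO pools. On the log2 scale Cd14 rose by 2.34 ± 0.30 in RVO (edgeR adjusted p = 0.00025) and 1.13 ± 0.22 in Control (adjusted p = 0.00062). Lbp, the serum protein that carries lipopolysaccharide, rose by 1.97 ± 0.38 in RVO on the log2 scale (edgeR adjusted p = 0.0022). In Control eyes 3 of 8 were higher and 0 lower (27.2% and 25.2% over all genes). Cd180, a receptor homologue of B cells and myeloid cells, led them with 1.59 ± 0.32 (edgeR adjusted p = 0.00073), and was at 0.932 ± 0.373 CPM in Untreated, 2.82 ± 0.78 CPM in Control and 1.72 ± 0.44 CPM in RVO eyes. Of the 9 genes, 0 were called by edgeR between RVO and Control, with 5 at an unadjusted p under 0.05 (47.1% over all genes). Ly96, which codes for MD-2, the part of the Tlr4 complex that binds lipopolysaccharide, was not called in any comparison.

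Adaptors, kinases and brakes of the receptors moved in both directions. Of 17 tested, 10 were higher and 3 lower in RVO against Untreated, and likewise 10 higher and 3 lower in Control against Untreated. Over all genes the shares were 27.4% and 24.6% for RVO and 27.2% and 25.2% for Control. Irf7, the transcription factor of type I interferon genes, was at 11.7 ± 1.8 CPM in Untreated, 118 ± 38 CPM in Control and 173 ± 65 CPM in RVO eyes, a log2 fold change of 3.88 ± 0.30 in RVO (edgeR adjusted p = 3e-05) and 3.32 ± 0.23 in Control (adjusted p = 2e-07). The kinase Ikbke rose by 2.88 ± 0.33 in RVO (edgeR adjusted p = 0.00016). In Control eyes Sigirr, a membrane brake on these receptors, rose by 2.21 ± 0.49 (edgeR adjusted p = 0.0015). Among the falls, Tnfaip3, which codes for the NF-kB brake A20, went from 376 ± 9 CPM in Untreated to 198 ± 45 CPM in Control and 137 ± 8 CPM in RVO eyes, and fell by 1.47 ± 0.07 in RVO (edgeR adjusted p = 3.2e-06) and by 0.95 ± 0.12 in Control (adjusted p = 1.8e-05). The kinases Tbk1 and Map3k7 were also lower, by 0.44 ± 0.07 in RVO for Tbk1 (edgeR adjusted p = 0.00094) and by 0.54 ± 0.06 in Control for Map3k7 (adjusted p = 8.7e-06). Ticam1, the adaptor TRIF of Tlr3 and Tlr4, was the 1 gene of this list called between RVO and Control, where 2.70% of all genes were called higher. It was at 3.77 ± 0.74 CPM in Untreated, 10.2 ± 1.2 CPM in Control and 19.5 ± 3.0 CPM in RVO eyes, with a log2 fold change of 0.94 ± 0.15 for RVO against Control (edgeR adjusted p = 0.00995). The call was kept in 1 of the 6 fits that left out 1 sample, that without RVO replicate 2, and the adjusted p reached 0.0567 in the other fits and was 0.0314 with the replicate number as a block.

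Of 27 other inflammasome sensors and regulators, 18 were tested for RVO against Untreated, of which 12 were higher and 1 lower (27.4% and 24.6% over all genes). Mefv, which codes for the sensor pyrin, had 0 counts in every Untreated pool and 89 in all RVO pools, a level at least 4.92-fold higher against a floor of 3 counts per library (edgeR adjusted p = 0.00074). Ninj1, which codes for a protein that ruptures the membrane after the gasdermin pore has formed, was at 5.81 ± 0.86 CPM in Untreated, 15.7 ± 1.3 CPM in Control and 53.2 ± 16.0 CPM in RVO pools. The log2 fold change of 1.76 ± 0.22 for RVO against Control was called (edgeR adjusted p = 0.00746), as were those of P2rx7, the ATP-gated channel upstream of Nlrp3 (1.18 ± 0.19, adjusted p = 0.00989), and of Txnip, a binding partner of Nlrp3 (0.74 ± 0.11, adjusted p = 0.00944). All 3 calls were likewise lost in every fit that left out 1 sample other than RVO replicate 2, with adjusted p up to 0.0550 for Ninj1 and 0.0567 for P2rx7 and Txnip, and with the replicate block (adjusted p = 0.0314 for each). In Control eyes 10 of 17 were higher and 1 lower than in Untreated (27.2% and 25.2% over all genes). The largest rises were those of the interferon-inducible GTPases Gm12250 (3.41 ± 0.54, edgeR adjusted p = 0.00011) and Gbp3 (2.38 ± 0.25, adjusted p = 4.2e-06), which have close paralogs. Nek7, a kinase that binds Nlrp3, was the gene that fell, by 0.35 ± 0.08 in RVO (edgeR adjusted p = 0.0047) and by 0.57 ± 0.06 in Control (adjusted p = 4.5e-06).

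In the list of the interleukin-1 family and its receptors, 4 of 9 tested genes were higher in RVO and 4 of 9 in Control against Untreated, and 0 were lower. Over all genes 27.4% were higher and 24.6% lower in RVO, and 27.2% and 25.2% in Control. Il1b, one of the cytokines that caspase-1 matures, had 3 counts in all Untreated, 156 in all Control and 654 in all RVO pools, a ratio of 109 in RVO (exact 95% counting interval 37.2 to 531, edgeR adjusted p = 7.6e-05). Il1rn, the receptor antagonist that blocks interleukin-1, had 5, 258 and 1363 counts, a ratio of 137 in RVO (58.4 to 421, edgeR adjusted p = 4.3e-05). The other caspase-1 substrate, Il18, was not called and stayed between 4.10 and 6.03 CPM in all 9 pools, with a log2 fold change of -0.30 ± 0.17 in RVO (edgeR adjusted p = 0.16) and -0.05 ± 0.14 in Control (adjusted p = 0.749). Between RVO and Control, edgeR called 0 of 11, and 5 had an unadjusted p under 0.05, as had 47.1% of all genes.

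**Figure D3:**
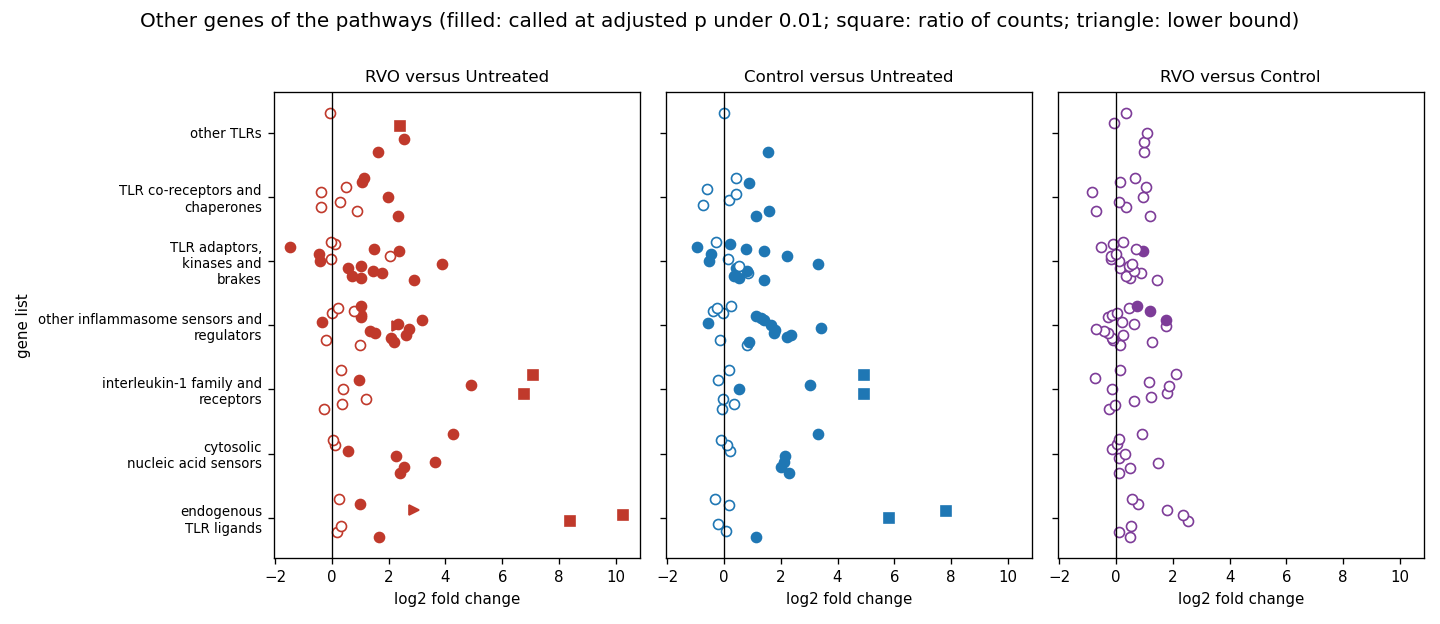
Log2 fold change (horizontal axis, 1 scale for the 3 panels) of the tested genes of 7 pathway lists (vertical axis), 1 panel per comparison, filled where called at an adjusted p under 0.01. Squares are ratios of counts and triangles lower bounds, for genes with at most 3 counts in each Untreated pool. RVO versus Control has 4 filled points, 1 among the adaptors and 3 among inflammasome regulators.

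Since myeloid cells are known to express most of the 10 genes, markers of cell types were summed beside them. In bulk samples, fewer cells of a type and less RNA per cell cannot be told apart. Of all genes, 27.4% were called higher and 24.6% lower in RVO against Untreated, and 27.2% and 25.2% in Control. The 10 pan-myeloid markers summed to 75.3 to 106 CPM in Untreated, 86.0 to 106 CPM in Control and 132 to 159 CPM in RVO pools, and in both lasered groups 6 of the 10 were higher and 2 lower than in Untreated. The 8 markers of homeostatic microglia summed to 68.4 to 109 CPM, 43.0 to 52.7 CPM and 18.3 to 44.5 CPM in the same order, with 5 of 8 lower in either lasered group. Those of monocytes and macrophages summed to 4.21 to 5.10 CPM, 27.6 to 41.4 CPM and 67.1 to 84.5 CPM, and 7 of 8 were higher in RVO than in Untreated, where Ly6c2 and Chil3 were at 0. The 10 neutrophil markers summed to 0.535 to 1.68 CPM, 7.14 to 18.6 CPM and 34.7 to 68.5 CPM. Of them, 5 passed the filter for RVO against Untreated, and these 5 were higher. In untreated eyes 6 markers, Ly6g, Cxcr2, Mpo, Elane, Retnlg and Mmp8, were at 0. Elane was at 0 in RVO pools too, and Ly6g and Mpo had at most 5 counts in any RVO pool. Camp had means of 0.117, 0.0907 and 0.170 CPM. S100a8 (25.9 CPM) and Csf3r (16.9 CPM) made up much of the mean sum in RVO pools (56.1 CPM). The 7 lymphocyte markers summed to at most 2.03 CPM in any pool. Within the RVO group, replicate 2 had the most microglial (44.5 CPM) and the fewest neutrophil markers (34.7 CPM), and also the lowest Nlrp3, Myd88, Casp1, Gsdmd, Aim2 and Tlr3 but the highest Tlr2 and Pycard. Markers of other possible sources differed between the groups as well: the 7 of Mueller glia summed to 4507 to 4773 CPM in Untreated, 2868 to 3515 CPM in Control and 1561 to 2419 CPM in RVO pools. The 6 endothelial markers summed to 149 to 155 CPM, 295 to 328 CPM and 137 to 249 CPM, and the 6 of pigment epithelium to 482 to 537 CPM, 432 to 513 CPM and 337 to 612 CPM in that order. Those of platelets and red cells summed to 10.5 to 12.2 CPM, 25.2 to 27.6 CPM and 49.3 to 181 CPM. The part of these cells in the differences of the 10 genes was not tested.

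**Figure D4:**
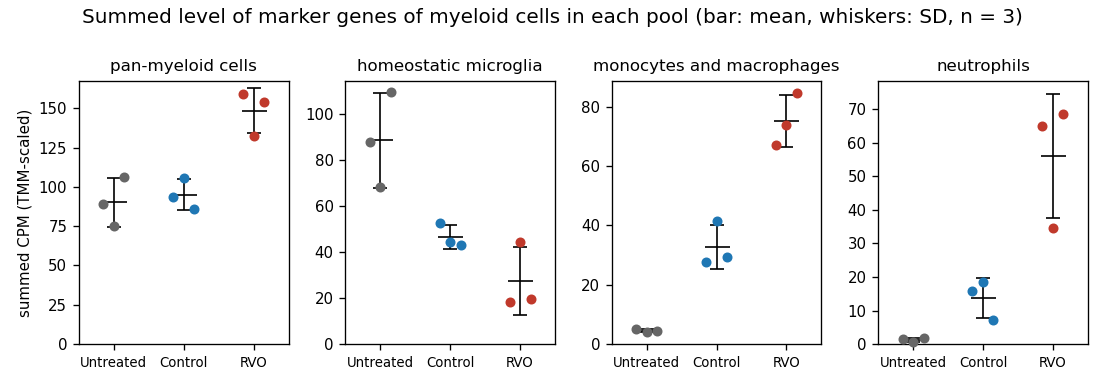
Summed CPM (vertical axes, linear, from 0, with a scale of their own) of marker genes of 4 kinds of myeloid cells in the 3 pools of each group, with mean and SD (n = 3). Markers of monocytes and macrophages and of neutrophils are lowest in Untreated, higher in Control and highest in RVO pools, and those of homeostatic microglia are lowest in RVO replicates 1 and 3.

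Counted per 1000 counts of the 10 pan-myeloid markers, the genes fell into different patterns. Tlr2 went from 9.60 ± 1.38 (SD, n = 3) in Untreated to 35.3 ± 4.7 in Control and 34.6 ± 8.1 in RVO pools. Myd88 had 84.8 ± 20.3, 265 ± 27 and 254 ± 16, and Gsdmd 5.47 ± 0.56, 19.3 ± 0.8 and 18.0 ± 1.5. For these 3 genes both lasered groups lay above the Untreated pools and overlapped each other. Nlrp3 had 3.56 ± 1.36, 7.61 ± 1.39 and 13.7 ± 4.4 per 1000 pan-myeloid counts, and Casp4 0.678 ± 1.173, 3.23 ± 1.10 and 7.58 ± 2.21, with RVO pools above Control pools for both. Tlr4 had 9.85 ± 4.67, 17.8 ± 5.3 and 24.7 ± 5.2, and its pools overlapped between Control and either other group. Aim2 was lower in RVO, with 27.5 ± 5.0, 19.1 ± 4.0 and 8.12 ± 0.22. Pycard was at 15.4 ± 5.5, 26.6 ± 2.0 and 16.0 ± 6.1, Casp1 at 4.80 ± 2.59, 8.26 ± 1.40 and 5.34 ± 1.39 and Tlr3 at 73.3 ± 16.0, 94.2 ± 10.4 and 62.5 ± 5.6, and for these 3 genes the ratio in RVO pools overlapped that in Untreated pools. With 3 against 3 pools, a two-sided exact permutation test cannot give a p below 0.1, and these ratios are a description. Leaving out 1 of the 10 markers moved the log2 difference of RVO and Untreated within 1.25 to 2.11 for Tlr2 and -2.32 to -1.46 for Aim2. The range was 1.03 to 1.90 for Myd88, 1.14 to 2.01 for Gsdmd, 1.40 to 2.27 for Nlrp3 and 0.82 to 1.69 for Tlr4. It crossed 0 for Tlr3 (-0.79 to 0.07), Pycard (-0.52 to 0.35) and Casp1 (-0.28 to 0.59). Over all genes and pairs of groups, 26 ends of such ranges lay at least 1 pooled SD from the value with all markers, and 30 did not. In Untreated pools Csf1r (38.0 CPM) and Fcgr3 (17.9 CPM) made up much of the mean marker sum (90.1 CPM). Both had lower means in Control (25.7 and 5.59 CPM) and in RVO pools (19.0 and 10.6 CPM).

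**Figure D5:**
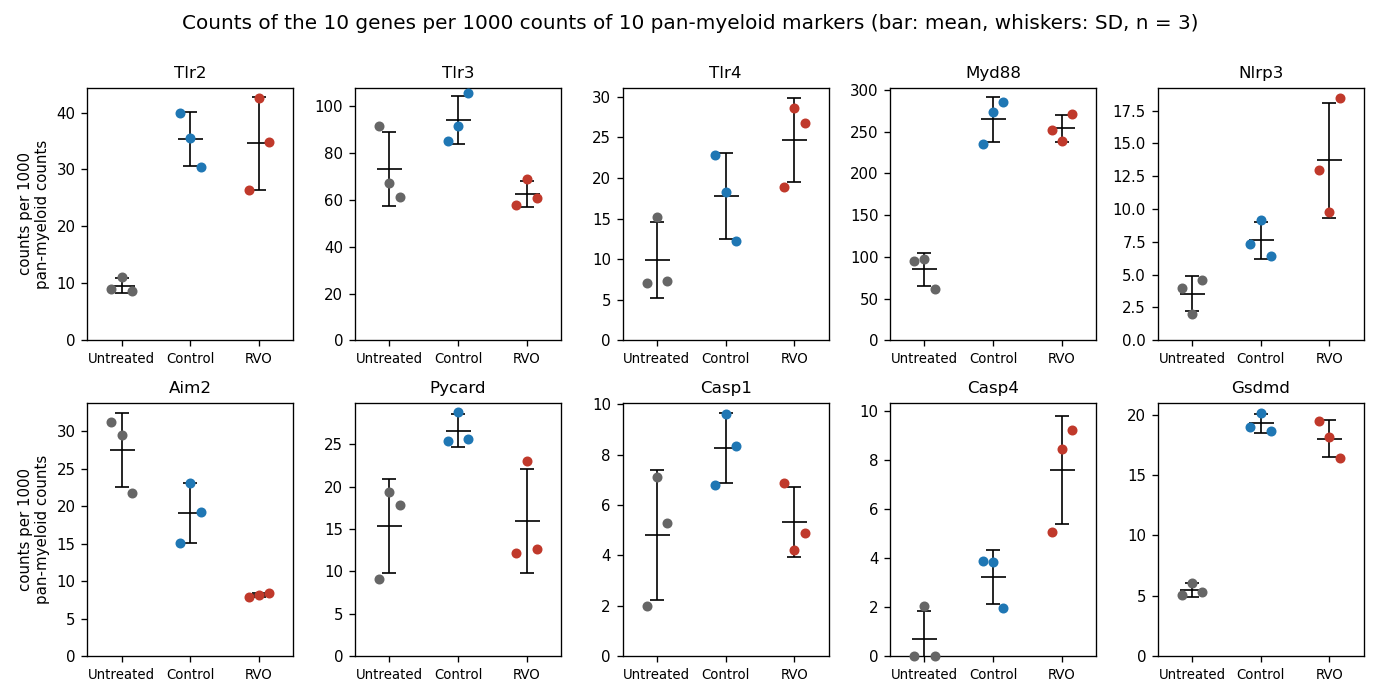
Counts of each of the 10 genes per 1000 counts of 10 pan-myeloid markers (vertical axes, linear, from 0) in the 3 pools of each group, with mean and SD (n = 3). Control and RVO pools lie at like heights for Tlr2, Myd88 and Gsdmd, RVO pools are highest for Nlrp3 and Casp4, and lowest for Aim2.

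The genes whose levels followed the members most closely over the 9 pools were found by Pearson correlation of log2(CPM + 0.5) among 14974 genes with a mean of at least 1 CPM, as a description. They were Myo1g and Lsm11 for Gsdmd, Afg3l1 and Erbb2 for Myd88, Cyp1b1 and Sema3b for Tlr2, Npm1 and Klf6 for Nlrp3, and Arhgef5 and Ptges for Tlr4, with r between 0.973 and 0.998. Such likeness was common, since 742 to 2951 genes had an r above 0.9 with each of these 5 members, and all points share the 9 pools in their 3 groups. Aim2 was closest to Snapc5 (r = 0.951) and Ppp2r5d (r = 0.944), and 19 genes exceeded 0.9. For Tlr3 these were Cdc37 and Npas4 and for Pycard Gm37759 and Anapc11, with 47 genes above 0.9 for either. Casp1 and Casp4 had a mean below 1 CPM and were left out.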

How the data were processed

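Each of the 9 samples was a pool of 6 retinas. The libraries were made with a stranded poly-A kit. Per the labels and the methods of the study, the authors mapped the reads with STAR 2.5.2b to GRCm38 with the annotation Gencode vM11, counted them per gene with featureCounts (Subread 1.5.1) and deposited raw counts without normalization. Whether the counting used the strand, and how reads matching several genes were handled, is not given in the sources used here, so values of close paralogs and of overlapping genes are uncertain. The 92 spike-in names, with 0 counts, were left out. The number of columns not used was 0.

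For each pair of groups, counts were filtered with filterByExpr, scaled by TMM and tested with the quasi-likelihood test of edgeR 4.0.16 (R 4.3.3), with Benjamini-Hochberg adjustment over all genes tested. Genes under 0.01 were called. TMM factors over all 9 samples were 0.903 to 0.935 in Untreated, 1.01 to 1.04 in Control and 1.04 to 1.07 in RVO samples. For a gene at or under 3 counts in all samples of a group, the ratio of summed counts per TMM-scaled library total is given with a Clopper-Pearson interval, or a bound against 3 counts per library if all were at 0. Alternatives were RLE factors, library size alone, no filter or at least 1 CPM in 3 samples, DESeq2 1.42.0, a fit of all 9 samples, a replicate block, a threshold of 0.05 and the omission of single samples, each in its turn. The procedure was tested on simulated counts.

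The 10 genes, the lists, the tests and the alternatives were chosen with earlier results of these data known. Of each pathway list, up to 2 genes with the largest rises and 2 with the largest falls among those called in a comparison are named. Ly96, Il18 and Txnip fell outside this rule and were named after their values were seen. Coordinates and exon lengths are from GENCODE vM21 (GRCm38), upstream sequences from RefSeq (GRCm38.p6). Pools are separate samples by the design, so p-values cover the spread between pools. Older symbols were matched for Nrros.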

Additional observations from a re-analysis of the deposited data

Results flagged for a closer look

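P2rx7, which codes for the ATP-gated channel whose opening precedes Nlrp3 activation, had its Control and RVO pools on opposite sides of the Untreated pools. It was at 1.61, 1.30 and 1.26 CPM in the Untreated pools, at 1.00, 1.07 and 1.10 CPM in the Control pools, all below them, and at 2.13, 2.58 and 2.53 CPM in the RVO pools, all above them. Against Untreated the log2 fold change was 0.79 ± 0.22 in RVO (edgeR adjusted p = 0.013) and -0.40 ± 0.25 in Control (adjusted p = 0.178), and neither passed the threshold of 0.01. The counts were 18, 17 and 18 in Untreated, 22, 21 and 26 in Control and 66, 60 and 57 in RVO pools. The order of Control and Untreated pools thus rests on few counts. P2rx7 was singled out here by the values of these same pools. The test of RVO against Control is therefore not independent of that choice. In it the difference was called (log2 fold change 1.18 ± 0.19, edgeR adjusted p = 0.00989). This call was lost in 5 of the 6 fits that left out 1 sample, all but that without RVO replicate 2, where the adjusted p reached 0.0567, and with the replicate number as a block (adjusted p = 0.0314). The part of other cell types in it was not tested.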

How the results depend on the processing

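The count of genes called for RVO against Untreated was 7 and ran from 6 to 8 over all alternatives, and from 6 to 7 when 1 sample was left out. For Control against Untreated it was 3, and became 6 at an adjusted p under 0.05, 6 without a filter on low counts and 5 with scaling by library size alone. Leaving out 1 sample gave 3 to 4. For RVO against Control it was 0, and became 4 at an adjusted p under 0.05, 4 with DESeq2, 3 without a filter and 3 in a fit of all 9 samples. Leaving out 1 sample gave 0 to 3, with 3 only without RVO replicate 2, while over all genes the calls went from 563 to 6257 without it, to 29 without RVO replicate 1 and to 0 or 1 without any other. The cause was not tested. Among log2 fold changes of RVO against Control, 3 that were close to 0 changed sign when 1 sample was left out: Tlr3 ranged from -0.029 to 0.11, Pycard from -0.40 to 0.012 and Casp1 from -0.27 to 0.26. No other log2 fold change changed sign under an alternative.

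No label ties the replicate numbers of RVO and Control to the same mice, so they were not taken to pair the samples. The deviations of same-numbered RVO and Control samples correlated at -0.126, -0.143 and 0.0749. Those of unlike numbers ran from -0.200 (RVO 3 with Control 1) to 0.216 (RVO 2 with Control 1). With 3 pools per group these values cannot decide which pools share mice, and the main tests took no account of shared mice. With the replicate number as a block the counts of genes called were 7, 3 and 0, and no call of the 10 genes changed. Over all genes, the block left 0 calls between RVO and Control, with 7227 genes at an unadjusted p under 0.05.

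Casp4 and Nlrp3 were limited by depth in Untreated samples, where 3 counts came to 0.210 to 0.268 CPM, and Casp1 and Gsdmd had at most 8 counts there.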

Other observations

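Sensors of nucleic acids in the cytosol, which share ligands with Tlr3 and Aim2, were higher after laser in 6 of 8 tested genes in RVO and in 5 of 8 in Control against Untreated, and 0 were lower. Over all genes 27.4% were higher and 24.6% lower in RVO, and 27.2% and 25.2% in Control. Zbp1, a sensor of Z-form nucleic acids, was at 0.249 ± 0.216 CPM (SD, n = 3) in Untreated, 2.70 ± 0.96 CPM in Control and 5.07 ± 2.39 CPM in RVO eyes, a log2 fold change of 4.26 ± 0.60 in RVO (edgeR adjusted p = 0.00044) and 3.33 ± 0.49 in Control (adjusted p = 6.4e-05). Ifi204, a member of the same PYHIN family of DNA sensors as Aim2, rose by 3.62 ± 0.56 in RVO (edgeR adjusted p = 0.00068), from 0.451 ± 0.312 to 5.51 ± 2.48 CPM. Ddx58, which codes for the RNA sensor RIG-I, was at 9.51 ± 0.36 CPM in Untreated, 46.8 ± 14.6 CPM in Control and 50.1 ± 13.2 CPM in RVO eyes, a log2 fold change of 2.28 ± 0.21 in Control (edgeR adjusted p = 1.4e-06). Between RVO and Control, edgeR called 0 of 9, and 2 had an unadjusted p under 0.05, against 47.1% of all genes.

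Among 8 endogenous ligands of Toll-like receptors, 5 were higher in RVO than in Untreated eyes, 3 of 7 tested were higher in Control, and 0 were lower. Over all genes 27.4% were higher and 24.6% lower in RVO, and 27.2% and 25.2% in Control. S100a8 and S100a9, the alarmins that bind Tlr4, had 3 and 1 counts over the Untreated pools and 2015 and 2434 over the RVO pools. The ratio per TMM-scaled library total was 337 for S100a8 (exact 95% counting interval 115 to 1634, edgeR adjusted p = 3.4e-05). For S100a9 a ratio against 1 count has an exact interval from 219 to 48209 and the difference was called (edgeR adjusted p = 4.2e-05). S100a8 is also among the neutrophil markers summed in the report. Of 8 ligands tested between RVO and Control, edgeR called 0, and 6 had an unadjusted p under 0.05, against 47.1% of all genes.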
